A study of Homo sapiens with 9 samples.

Results

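Fibronectin (FN1) and 9 matricellular genes (TNC, THBS1, THBS2, SPARC, SPP1, POSTN, TGFBI, CYR61 and CTGF) were followed through RNA-seq and iCLIP of U251 cells, a human glioblastoma line. The genes were taken by name, 10 of the 20848 in the deposited gene counts, and all 10 were among the 13856 genes with enough counts to be tested. RNA-seq was done on 3 libraries of cells in which the RNA-binding protein Musashi1 (gene MSI1) was knocked down and on 3 libraries of wild-type control cells, and MSI1 iCLIP, which maps nucleotides crosslinked to the protein by ultraviolet light, on 3 samples of wild-type cells. All samples came from the 1 line. The study asked how expression and splicing change with the knockdown and how this relates to the sites MSI1 binds. The labels do not say how MSI1 was depleted, what the control cells received, or whether replicates were separate cultures. The p-values therefore reflect only how these libraries vary, and that variation may be technical.

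Matricellular proteins are secreted into the extracellular matrix, where they act less as scaffold than as signals: they bind integrins, syndecans, CD44 and growth factors and set how firmly cells hold on to the matrix. Fibronectin is the fibrillar glycoprotein they are deposited on, and its own fibrils are pulled out by integrins at the cell surface. In glioblastoma, tenascin-C, thrombospondin-1, SPARC, osteopontin and periostin are known as components of the tumour's vessel walls and matrix. MSI1 binds RNA at short motifs with a UAG core and acts on the stability, translation and splicing of its targets.

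The depth was 37082699 to 42427430 gene counts in the knockdown libraries and 32919299 to 47277016 in the control libraries. MSI1 stood at 3.15, 5.11 and 2.26 CPM (counts scaled to a library of 1000000) in knockdown replicates 1, 2 and 3, against 16.05, 17.69 and 7.594 CPM in control replicates 1, 2 and 3. The groups did not overlap, with a log2 fold change of -1.97 ± 0.42 (SE) and an edgeR adjusted p of 0.0699, which was 0.00279 when the replicate number entered as a block and 0.000372 without control replicate 3. Without any other library it was between 0.150 and 0.306. Control replicate 3 was the outlying library on the leading principal component (62.5% of the variance). The first exon took a median of 0.476% of a gene's exon counts there, over 7855 genes, against 1.174%, 1.503% and 1.010% in the knockdown libraries and 1.21% and 1.28% in the other control libraries. Of the glial markers, VIM (2511 CPM over the 6 libraries), CD44 (3539), NES (830), SOX2 (121) and GFAP (69.8 CPM) were present. SLC1A3 (17.5), S100B (1.82), AQP4 (0.05) and OLIG2 (0.00 CPM) were lower or absent. Of the markers of all lists, SOX2 was called by edgeR without the block, at an adjusted p under 0.05. With the replicate block SOX2, SLC1A3, the fibroblast markers COL1A1, PDGFRA and PDGFRB, and the endothelial marker KDR were called. The neuronal markers SNAP25 and GAP43 and the smooth muscle marker CNN1 were called with the block too. Of the fibroblast markers, COL1A2 (1226), PDGFRA (342), COL1A1 (85.3) and PDGFRB (5.09 CPM) were present. COL3A1, DCN and LUM were at 0.06, 0.12 and 0.05 CPM. Of the leukocyte markers, CD68 was at 5.04 CPM and the other 4, PTPRC among them at 0.01 CPM, were under 1 CPM. The summed endothelial markers were 22.1 to 25.5 CPM in knockdown libraries and 13.4 to 14.6 CPM in control libraries, nearly all of it KDR (18.02 CPM over the 6 libraries), while the other 4 of the 5, PECAM1 among them at 0.02 CPM, were under 1 CPM. The summed neuronal markers were 35.0 to 38.7 CPM in knockdown libraries and 25.5 to 33.6 CPM in control libraries, mostly SYT1, with STMN2 at 0.00 CPM. The part of these lists in the results was not tested. Fewer cells of a type and less RNA per cell cannot be told apart in such bulk libraries.

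Across the members, thrombospondin-1 was lower on MSI1 knockdown and most others were higher. THBS1 averaged 449 ± 88.1 CPM in knockdown cells and 1019 ± 282 CPM in control cells (SD, n = 3 each). The largest differences in the other direction were those of TGFBI, with 804 ± 92.6 CPM in knockdown cells and 495 ± 100.3 CPM in control cells, and SPP1, with 806 ± 97.5 CPM in knockdown cells and 534 ± 27.5 CPM in control cells (SD, n = 3 each). TNC and CYR61 differed by less than the spread between libraries. Of the 10 members, 8 had a positive and 2 a negative log2 fold change, with a median of 0.30 against -0.04 over all genes tested. edgeR's quasi-likelihood test with the group alone called 0 of 10 at an adjusted p of 0.05, against 1.67% of all genes tested. Same-numbered libraries varied together, and once the replicate number was added as a block this test called 7 of 10. They were 6 higher, against 7.04% of all genes, and 1 lower, against 10.3% of all genes. DESeq2 called 3 of 10, THBS1, SPP1 and TGFBI, against 5.76% of all genes. The same 3 were called by edgeR when control replicate 3 was left out, and none when any other library was left out. For the other 7 members the edgeR adjusted p without control replicate 3 was between 0.105 and 0.909. In 5 members every knockdown library lay above every control library, a pattern found in 8.73% of all genes, and in 1 every knockdown library lay below, found in 14.1% of all genes.

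**Figure D1:**
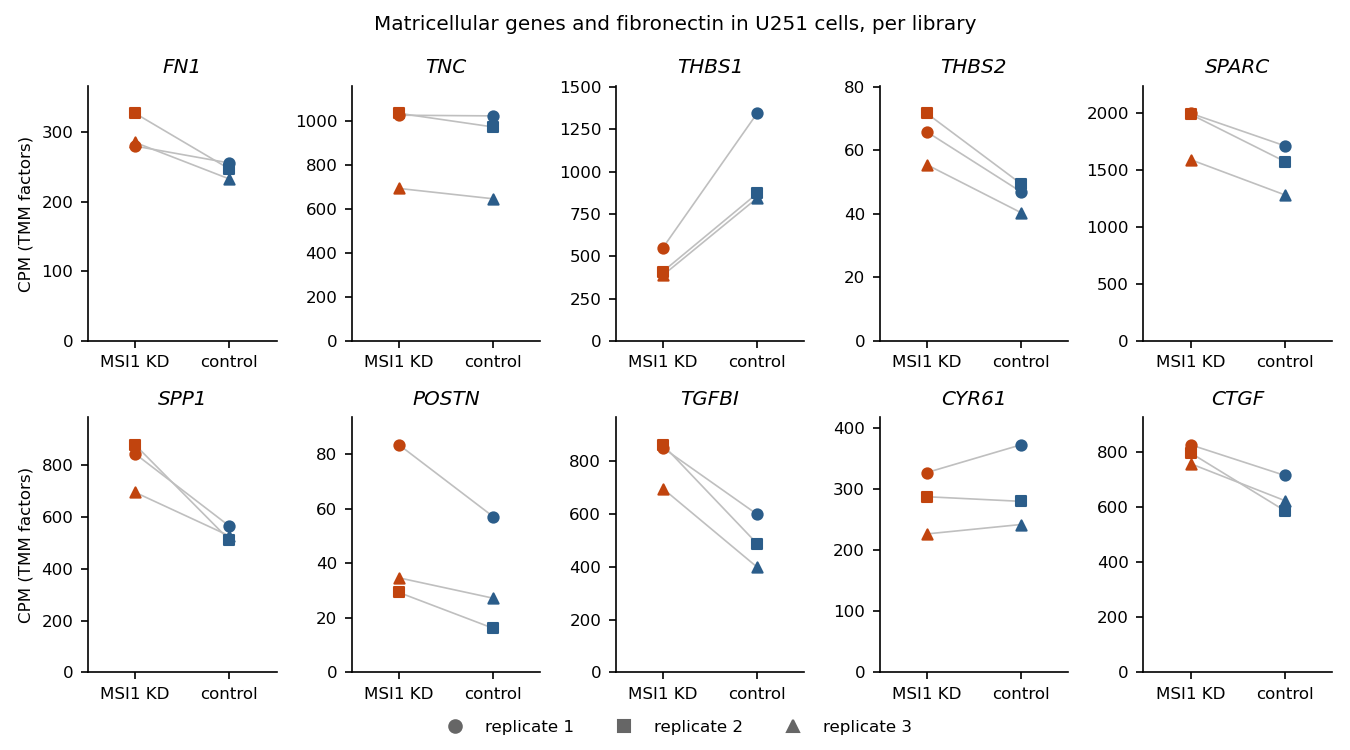
CPM of each gene (vertical axis, from 0, scaled per gene) in the MSI1 knockdown libraries (left) and control libraries (right), with a line joining libraries of the same replicate number. THBS1 is lower on the knockdown side in all 3 pairs, and 8 genes are higher there in all 3. The share of all genes that are higher in all 3 pairs was not counted.

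Fibronectin, the scaffold of the group, had 280.4, 327.6 and 285.7 CPM in knockdown libraries and 256.1, 247.5 and 233.1 CPM in control libraries. Each knockdown library lay above each control library, by a narrow margin. A log2 fold change of 0.28 ± 0.12 (SE) was found, with an edgeR adjusted p of 0.341 and 0.0628 with the replicate block, so FN1 passed neither test. Per kilobase of exon it was among the lower members, with 33.2 ± 2.88 CPM per kb in knockdown cells and 27.4 ± 1.30 in control cells (SD, n = 3 each), over 8975 exonic bases.

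THBS1 encodes thrombospondin-1, a trimeric matricellular protein that activates latent TGF-beta and inhibits angiogenesis through CD36 and CD47. It had 550, 410 and 387 CPM in knockdown libraries and 1344, 870 and 843 CPM in control libraries. The highest knockdown library stayed well below the lowest control library, and replicate 1 was the highest of its group on both sides. In the edgeR fit the log2 fold change was -1.18 ± 0.23 (SE), and the log2 ratios of the 3 same-numbered pairs were -1.29, -1.09 and -1.12. The edgeR adjusted p was 0.0583 with the group alone, 0.00128 with the replicate block, 0.00179 without control replicate 3 and between 0.135 and 0.244 without any other library. In DESeq2 it was 0.000825.

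THBS2, the second thrombospondin, which shares the trimer form and the anti-angiogenic repeats of THBS1 but does not activate TGF-beta, was higher in knockdown libraries. It had 65.8, 71.6 and 55.4 CPM in knockdown libraries and 46.9, 49.4 and 40.3 CPM in control libraries. The groups did not overlap, and the pair log2 ratios of 0.49, 0.53 and 0.46 were close to each other. The log2 fold change was 0.50 ± 0.16 (SE), with an edgeR adjusted p of 0.192 that became 0.0155 with the replicate block. THBS1 was more abundant than THBS2 in both groups. Its level per kb was 77.5 ± 15.2 CPM in knockdown cells and 176 ± 48.6 in control cells, and that of THBS2 was 11.1 ± 1.41 in knockdown cells and 7.84 ± 0.807 in control cells (SD, n = 3 each).

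SPP1 encodes osteopontin, a phosphorylated ligand of RGD-binding integrins and of CD44. It had 844, 879 and 695 CPM in knockdown libraries and 565, 511 and 527 CPM in control libraries. The 3 control libraries lay close together and all below the knockdown libraries. Its log2 fold change was 0.59 ± 0.13 (SE), with an edgeR adjusted p of 0.0806, 0.0111 with the replicate block and 0.0202 without control replicate 3, and a DESeq2 adjusted p of 0.0124.

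TGFBI, named for its induction by TGF-beta, encodes a fasciclin-domain protein that links collagens to integrins. It had 851, 863 and 697 CPM in knockdown libraries and 599, 488 and 399 CPM in control libraries. The groups did not overlap, and replicate 3 was the lowest of its group on both sides. The log2 fold change of 0.70 ± 0.18 (SE) was the largest rise among the members called with the block. The edgeR adjusted p was 0.110, 0.00573 with the replicate block and 0.0282 without control replicate 3, and the DESeq2 adjusted p was 0.0157.

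POSTN encodes periostin, the other fasciclin-domain member, which supports collagen crosslinking. It had 83.3, 29.3 and 34.6 CPM in knockdown libraries and 57.0, 16.1 and 27.2 CPM in control libraries. Replicate 1 was high in both groups, and the groups overlapped. The highest control library was 3.53 times the lowest, the widest spread of any member, and in knockdown libraries this ratio was 2.85. The log2 fold change was 0.55 ± 0.55 (SE) with an edgeR adjusted p of 0.737. With the replicate block the log2 fold change was 0.58 ± 0.12 (SE) and the adjusted p 0.0283, and the pair log2 ratios were 0.55, 0.86 and 0.35. The unblocked value fell to 0.01 without knockdown replicate 1 and reached 1.18 without control replicate 1.

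SPARC, an acidic collagen-binding glycoprotein that loosens cell adhesion, was the most abundant member. It had 1996, 1987 and 1590 CPM in knockdown libraries and 1711, 1573 and 1281 CPM in control libraries. The groups overlapped through knockdown replicate 3, which was itself above control replicate 3. SPARC had a log2 fold change of 0.29 ± 0.16 (SE), with an edgeR adjusted p of 0.470 and 0.0299 with the replicate block.

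TNC encodes tenascin-C, a large multi-armed glycoprotein that weakens adhesion to fibronectin. It had 1025, 1033 and 692 CPM in knockdown libraries and 1022, 971 and 645 CPM in control libraries. Replicate 3 was low on both sides and the groups overlapped almost fully. TNC had a log2 fold change of 0.06 ± 0.23 (SE), with an edgeR adjusted p of 0.944, and 0.506 with the replicate block. Leaving out knockdown replicate 2 or control replicate 3 turned its sign, to -0.035 and -0.062.

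CYR61 and CTGF are CCN proteins, integrin-binding matricellular proteins and direct targets of YAP and its partner TEAD factors. CYR61 had 327, 287 and 226 CPM in knockdown libraries and 372, 280 and 242 CPM in control libraries. The groups overlapped, with a log2 fold change of -0.09 ± 0.21 (SE) and an edgeR adjusted p of 0.901, and 0.478 with the block. CTGF had 826, 797 and 758 CPM in knockdown libraries and 715, 587 and 623 CPM in control libraries. Its groups did not overlap. CTGF had a log2 fold change of 0.31 ± 0.13 (SE), with an edgeR adjusted p of 0.304 and 0.0374 with the replicate block.

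**Figure D2:**
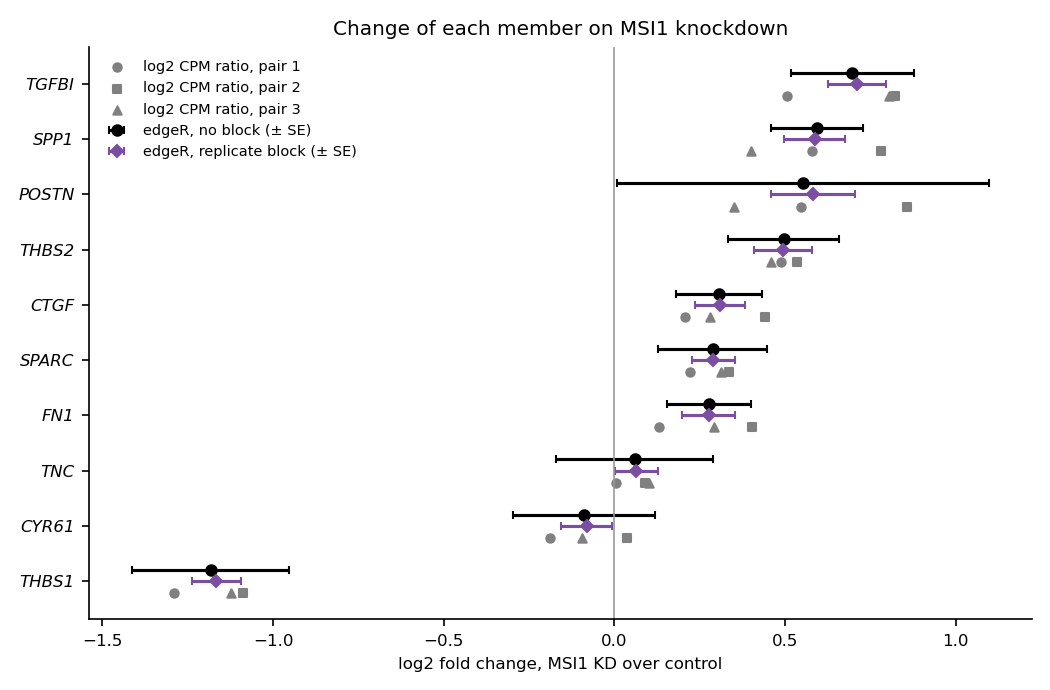
log2 fold change of MSI1 knockdown over control (horizontal axis) for each gene, ordered by size, from edgeR without (black) and with the replicate number as a block (purple), with SE bars, and the log2 CPM ratio of each same-numbered pair (grey). The 2 estimates lie at most 0.031 apart for any gene, while the SE is smaller with the block, most of all for POSTN (0.12 with the block against 0.55 without).

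Levels per kilobase of exon were compared between genes, although coverage along the exons was uneven, which limits the comparison. They place the members in an order. In control libraries it ran SPARC (485 CPM per kb), SPP1 (329), CTGF (274), TGFBI (177), THBS1 (176), CYR61 (130), TNC (116), FN1 (27.4), POSTN (9.90) and THBS2 (7.84). Neighbours did not overlap between SPARC, SPP1, CTGF and TGFBI, nor between TNC, FN1 and POSTN. TGFBI and THBS1, THBS1 and CYR61, CYR61 and TNC, and POSTN and THBS2 overlapped in their ranges over the 3 libraries. In knockdown cells SPARC (592), SPP1 (496), CTGF (339) and TGFBI (287 CPM per kb) kept the first places, while THBS1, at 77.5 CPM per kb, stood below CYR61 (122) and TNC (121). Among the 13856 genes tested, ranked from the highest level per kb, THBS1 stood at rank 807 in knockdown cells and 282 in control cells, and TGFBI at rank 158 in knockdown cells and 279 in control cells. No other gene in the files overlapped a member. Transcripts outside that annotation, on either strand, were not tested for.

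Fibronectin and tenascin-C are both built from type III repeats of which some are encoded by exons that can be left out. Fibronectin has the extra domains EDB and EDA and a variable segment, V. The extra domains are included in the matrix of embryos and tumours far more than in plasma fibronectin. Tenascin-C has the repeats A1 to D between constant repeats, and its large forms are those of growing and invading tissue. Each of the 10 alternative exons was found in the deposited exon counts by its order and length. In GENCODE release 29, EDB was in 3 and EDA in 5 of 10 long FN1 transcripts. The V exon was in 3 of them at its full 467 bases, and shorter forms of it were not counted. TNC exon C was in 1 of 6 long transcripts. The following 3 are shown for the motif that MSI1 binds: EDB, the exon with the lowest inclusion, EDA, its companion extra domain, and TNC C, whose groups did not overlap. They are GENCODE sequences on GRCh38, written as DNA in the direction of the transcript, 5′ to 3′, with every TAG in capitals.
FN1 exon 25 (EDB): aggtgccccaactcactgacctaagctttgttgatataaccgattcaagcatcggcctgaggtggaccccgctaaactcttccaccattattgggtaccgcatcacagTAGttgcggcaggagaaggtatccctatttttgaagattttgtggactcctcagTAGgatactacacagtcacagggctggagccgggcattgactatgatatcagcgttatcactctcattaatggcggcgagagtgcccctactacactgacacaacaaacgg
FN1 exon 33 (EDA): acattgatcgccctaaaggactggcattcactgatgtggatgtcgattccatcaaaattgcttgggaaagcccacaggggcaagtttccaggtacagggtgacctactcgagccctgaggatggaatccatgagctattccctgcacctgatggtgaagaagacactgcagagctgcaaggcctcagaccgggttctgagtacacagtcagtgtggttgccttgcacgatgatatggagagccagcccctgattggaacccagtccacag
TNC exon 16 (C): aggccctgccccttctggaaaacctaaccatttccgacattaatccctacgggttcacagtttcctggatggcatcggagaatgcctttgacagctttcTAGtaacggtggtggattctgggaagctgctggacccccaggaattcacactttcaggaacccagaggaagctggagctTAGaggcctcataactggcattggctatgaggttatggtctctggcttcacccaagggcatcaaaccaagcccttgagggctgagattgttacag
EDB (273 bases) and TNC C (273 bases) held 2 TAG each, or 7.33 per kb, and EDA (270 bases) held 0 TAG. Of the other alternative exons, TNC A4 held 3 (10.99 per kb), FN1 V 4 (8.57 per kb), and TNC A3 and B 2 each (7.33 per kb). TNC A1, A2 and D held 1 each (3.66 per kb). The longest matching transcripts held 46 TAG in 8905 bases of FN1 (5.17 per kb) and 28 in 7641 bases of TNC (3.66 per kb), searched on the transcript's strand. In hg18 the exons are chr2:215965899-215966171 for EDB, chr2:215953779-215954048 for EDA and chr9:116850360-116850632 for TNC C, all on the minus strand.

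Junction reads were not used here, and inclusion was taken as the read density of an exon relative to that of the nearest constant exon on each side. Exons C and D of TNC were the ones, of the 10, whose groups did not overlap. How many exons of other genes separate in this way was not counted, so no share over all exons stands beside this. For exon C the relative inclusion was 37.0%, 35.0% and 32.0% in knockdown libraries and 29.42%, 24.01% and 20.01% in control libraries, from 965, 793 and 592 counts in knockdown libraries and 843, 558 and 312 counts in control libraries. All 3 knockdown libraries lay above all 3 control libraries, and the difference of the means, 34.7% ± 2.51 in knockdown and 24.5% ± 4.72 in control cells (SD, n = 3 each), was 10.2 percentage points. The exact two-sided permutation p was 0.1, the smallest that 3 against 3 libraries can give. Without control replicate 3 the difference was 7.97 percentage points. Against the other exons of TNC, edgeR's diffSpliceDGE gave exon C a log2 change of 0.40 with an unadjusted p of 0.195, and of 0.42 with an unadjusted p of 0.0154 with the replicate block. Neither passed after adjustment over all exons. The next exon, TNC D (exon 17), had 113%, 98.7% and 97.3% in knockdown libraries and 95.3%, 95.2% and 83.3% in control libraries. Its lowest knockdown library lay just above the highest control library, with a difference of 11.7 percentage points and an exact permutation p of 0.1. For exon D this did not hold under other references. Relative to all constant exons of TNC the difference was 6.25 percentage points with an exact p of 0.6, and as a share of the gene's exon counts the exact p was 0.4. Without knockdown replicate 1 it was 6.71 percentage points and without control replicate 3 7.73.

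EDB was the least included exon of the 10. Its relative inclusion was 14.7%, 16.7% and 12.8% in knockdown libraries and 20.02%, 19.33% and 12.93% in control libraries. It was lower in the knockdown library of each same-numbered pair, but control replicate 3 lay within the knockdown range. The means were 14.7% ± 1.96 in knockdown and 17.4% ± 3.91 in control cells (SD, n = 3 each), with an exact permutation p of 0.3 and, over the 3 pairs, an exact sign-flip p of 0.25, the smallest possible. Relative to all constant exons of FN1 the difference was -4.82 percentage points with an exact p of 0.1.

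EDA, at 67.0%, 65.5% and 58.8% in knockdown libraries and 63.2%, 61.9% and 49.5% in control libraries, was higher in all 3 pairs, and the groups overlapped (exact permutation p of 0.4). The V exon (exon 40, 467 bases), of which a part is constant, was at 58.5%, 59.6% and 53.8% in knockdown libraries and 53.7%, 53.0% and 55.8% in control libraries (exact permutation p of 0.2). Without control replicate 3 the EDB difference was -4.96 and the EDA difference 1.19 percentage points.

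The TNC exons A1, A2, A3 and A4 varied more between libraries than between groups. A1, for example, was at 55.0%, 70.5% and 45.3% in knockdown libraries and 60.4%, 69.6% and 33.1% in control libraries. Replicate 2 was the highest and replicate 3 the lowest of both groups in all 4 of these exons. Their exact permutation p-values were 0.9, 0.7, 0.8 and 0.5. Exon B was near full inclusion, at 98.0%, 94.3% and 97.2% in knockdown libraries and 90.1%, 92.4% and 97.7% in control libraries (exact permutation p of 0.3).

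**Figure D3:**
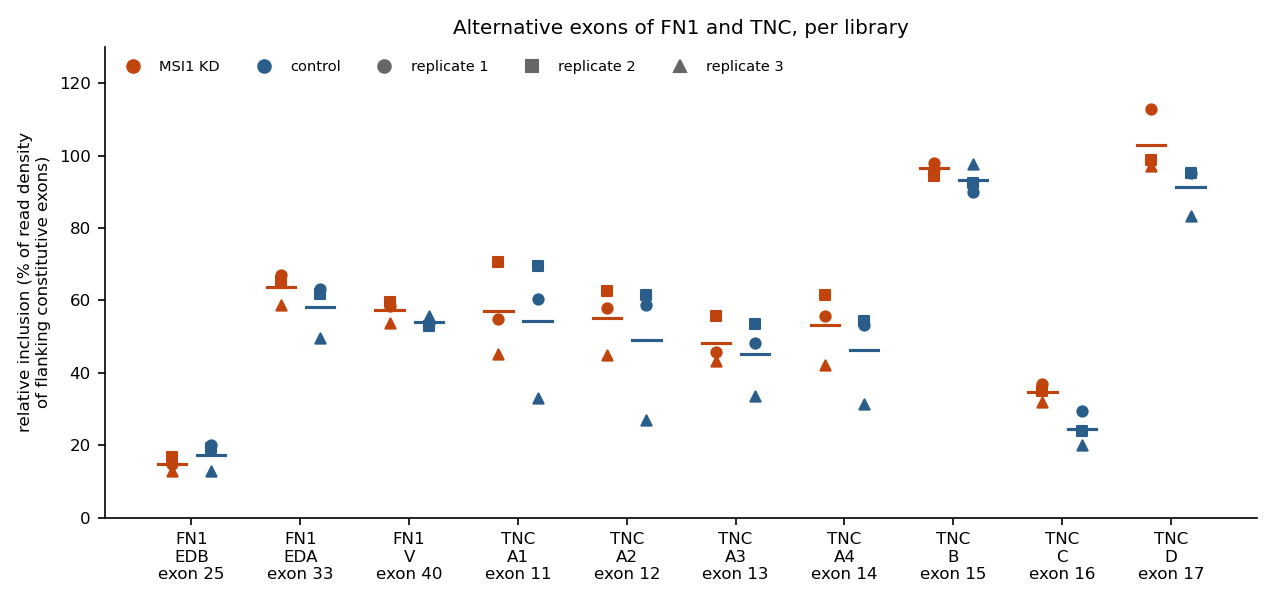
Relative inclusion in % (vertical axis, read density of the exon over that of the flanking constant exons) of the 10 alternative exons of FN1 and TNC in each library, MSI1 knockdown left of control, with bars at the means. TNC C and TNC D are the exons whose groups do not overlap, and control replicate 3 is the lowest library for A1 to A4.

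Across all exons of the members, 185 of 186 were tested against the other exons of their gene. diffSpliceDGE called 0 at an adjusted p of 0.05, against 0.0% of 123109 exons of all genes. As it called no exon of any gene, the 0 in the members does not show that their exon usage was unchanged. With the replicate block it again called 0, against 0.00812% of all exons, and 6 had an unadjusted p under 0.05, against 1.97% of all exons. Of these 6, 4 were among the 9 first exons tested, and the share over the first exons of all genes was not counted. The first exon of SPP1, the exon with the lowest p, took 5.81%, 6.86% and 5.36% of the gene's exon counts in knockdown libraries and 5.09%, 6.54% and 2.39% in control libraries. Its log2 change was 0.38 without the block (unadjusted p of 0.191) and 0.47 with it (unadjusted p of 0.00652). The first exon of THBS1 took 0.319%, 0.568% and 0.508% in knockdown libraries and 0.298%, 0.525% and 0.0877% in control libraries. In both genes control replicate 3 was the lowest library and the other 2 control libraries overlapped the knockdown libraries. The first exon share was lowest in control replicate 3 in 9 of the 10 members. Its median over 7855 genes was lowest there too, at 0.476% against 1.010% to 1.503% in the other libraries.

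The last exon of these genes holds most or all of the 3′ UTR. For SPARC it took 51.7%, 47.6% and 58.6% of exon counts in knockdown libraries and 49.1%, 48.6% and 68.2% in control libraries. For THBS1 it took 31.9%, 27.1% and 33.3% in knockdown libraries and 29.8%, 27.6% and 38.8% in control libraries. For SPP1 it took 41.3%, 38.3% and 38.9% in knockdown libraries and 41.0%, 37.1% and 44.3% in control libraries. FN1 had the smallest shares, 7.75%, 7.22% and 8.62% in knockdown libraries and 7.11%, 7.07% and 12.5% in control libraries. CTGF had the largest, 77.5%, 73.4% and 85.9% in knockdown libraries and 77.7%, 76.3% and 92.4% in control libraries. The share was highest in control replicate 3 in 9 of the 10 members, POSTN being the exception, and the groups of these 5 genes overlapped. With all libraries the mean share was higher in knockdown cells in 1 member, and without control replicate 3 in 10. Over 7855 genes the median last exon share was 32.9%, 31.6% and 32.7% in knockdown libraries. It was 31.9%, 30.9% and 33.8% in control replicates 1, 2 and 3, so control replicate 3 was the highest over all these genes too. The part of this uneven coverage in the gene and exon results was not tested.

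**Figure D4:**
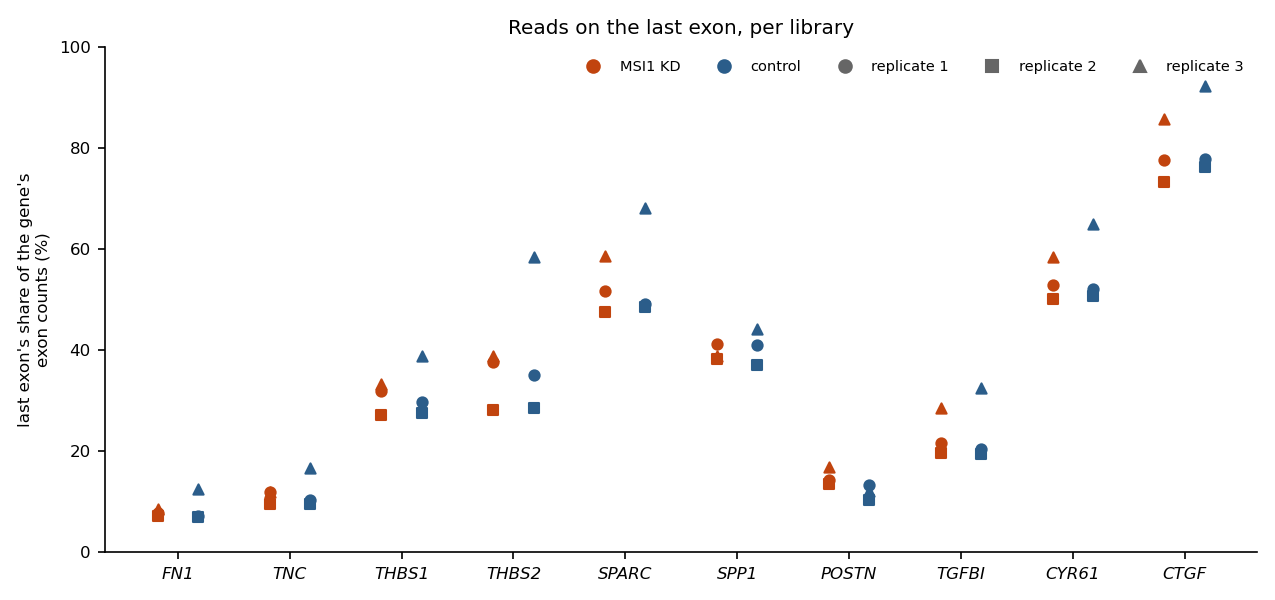
Share of a gene's exon counts on its last exon (vertical axis, %) for each member and library, MSI1 knockdown left of control. The triangle of control replicate 3 is the highest point for every gene but POSTN.

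iCLIP reported MSI1 sites in all 10 members in replicate 1, in 9 in replicate 2 and in 8 in replicate 3. The lists held 1746795, 145718 and 208722 sites in all, and replicate 1 had the most sites in each member. No control iCLIP was used here, and abundant RNAs can give more sites. The order of the members depended on the sample. TGFBI had 759, 38 and 128 sites in replicates 1, 2 and 3, the most of any member in replicates 1 and 3, while SPARC, with 548, 50 and 115, had the most in replicate 2. TNC had 348, 40 and 57, and THBS1 195, 40 and 123. SPP1 had 184, 43 and 52, and CTGF 124, 33 and 69. FN1, with 81, 3 and 18 sites over a long transcript, CYR61, with 34, 8 and 5, THBS2, with 28, 2 and 0, and POSTN, with 8, 0 and 0, had few. Where in the gene the sites lay differed between members. In SPP1 the last exon, 56.6% of the exonic length, held 166 of 184, 39 of 43 and 51 of 52 sites. In THBS1 it makes up 36.4% of the exonic length and held 163 of 195, 36 of 40 and 112 of 123. In TGFBI it held 155 of 759, 21 of 38 and 58 of 128, and introns held 460, 12 and 55. The 3 members with the lowest level per kb, FN1, POSTN and THBS2, were also those without a shared site.

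Sites on the same nucleotide and strand in all 3 samples numbered 28 in the members, in 7 of the 10 genes. SPP1 held 10, SPARC and TGFBI 6 each, THBS1 3, and TNC, CYR61 and CTGF 1 each. All 28 were in the last exon and on the strand of the gene. Over all genes, 4442 sites were shared, in 1544 of 17907 genes with any site, and 41.0% of these lay in last exons, 3.96% in other exons and 51.7% in introns. By the number of shared sites SPP1 ranked 43 among all genes, SPARC and TGFBI 81, and THBS1 200.

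In SPP1 the 10 shared sites lay 258 to 415 nucleotides before the 3′ end of exon 7, which is 920 nucleotides long, with a median of 353.5. What the authors' p-values test is not given in the sources used here, and they are used only to order and limit sites within a list. They were 1 for 8.33%, 16.1% and 14.7% of all sites in replicates 1, 2 and 3. The 5 SPP1 sites with the lowest ranks of these p-values fell within chr4:89123227-89123241 (hg18, plus strand), and for chr4:89123229 the authors' deposited p-values were 1.12e-09, 0.168 and 0.184 in replicates 1, 2 and 3. In TGFBI the 6 shared sites lay 50 to 103 nucleotides before the 3′ end of exon 17. The first of them by rank was chr5:135427303, with deposited p-values of 8.28e-08, 0.0653 and 0.0293, and the other 5 fell within chr5:135427335-135427356 on the plus strand. In SPARC the 6 sites were spread over the last exon, from 49 to 1887 nucleotides before its end. In THBS1 they lay 332, 1002 and 1340 nucleotides before the end of exon 22. No site of the members was shared among sites with a deposited p of at most 0.05 in each list, while 123 were shared when sites within 5 nucleotides were accepted.

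**Figure D5:**
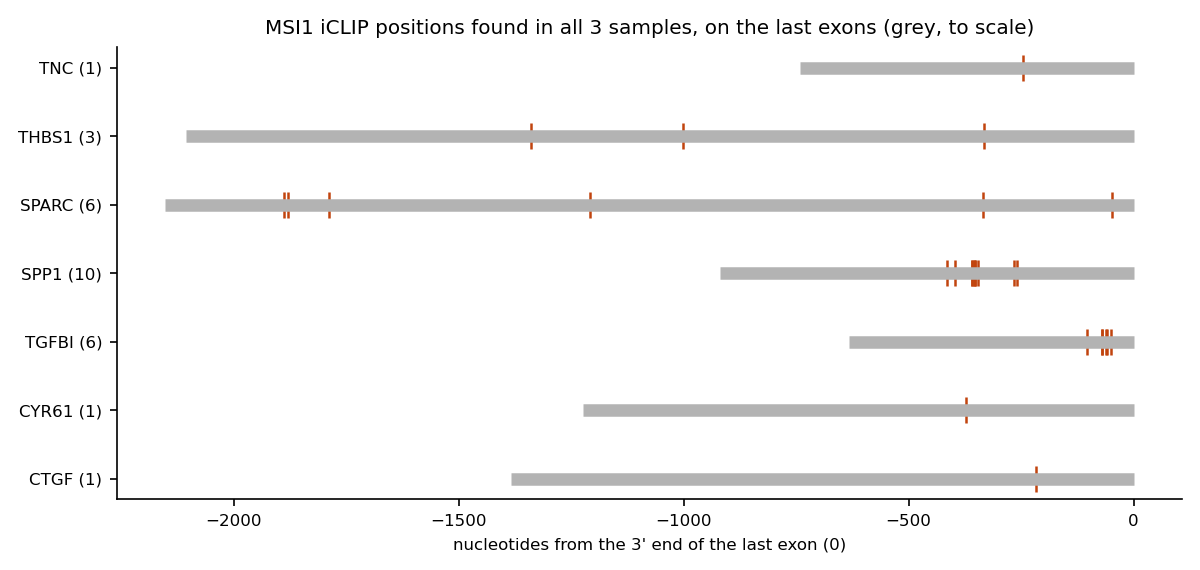
Positions of the 28 shared MSI1 iCLIP sites (red ticks) on the last exons of 7 members (grey bars, to scale), as nucleotides from the 3′ end of the exon (horizontal axis), with the number of sites in brackets. The ticks of SPP1 and TGFBI are close together, those of SPARC and THBS1 spread along the exon.

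Members with several shared sites had log2 fold changes of either sign, 0.59 for SPP1, 0.70 for TGFBI, 0.29 for SPARC and -1.18 for THBS1. Within the alternative exons sites were few. Exon B of TNC held 8, 0 and 1 in iCLIP replicates 1, 2 and 3, the most of them in replicate 1. Some introns beside the TNC exons held more, with 35, 2 and 7 in the intron before A1 (8683 nucleotides). Exon C of TNC held 1, 0 and 0 sites in iCLIP replicates 1, 2 and 3, the intron before it (8620 nucleotides) 33, 1 and 8, and the intron after it (1577 nucleotides) 7, 0 and 1. Of the 348 TNC sites of replicate 1, 207 were in introns, so the intron before exon C was 1 of several with sites. EDB held 1, 0 and 0 sites, EDA 2, 0 and 0, and the V exon 0 in each sample. None of these sites was shared by all 3 samples.

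The genes that act with the members were taken as 6 lists. Their counts stand beside 1.67% of all genes called without the block, and 7.04% called higher and 10.3% called lower with it. In all, 3 of the 96 tested genes of the lists were called without the block (3.12%), and 20 were called higher and 16 lower with it. Among the receptors, integrin beta-1 (ITGB1), the common beta chain of the fibronectin and tenascin receptors, fell with the knockdown. It had 277, 216 and 281 CPM in knockdown libraries and 627, 549 and 913 CPM in control libraries, and the groups were far apart. Its log2 fold change was -1.43 ± 0.22 (SE) with an edgeR adjusted p of 0.0302. It was 1 of 16 tested receptors called, and with the replicate block 6 were called higher and 3 lower. The list's median log2 fold change was 0.39, against -0.04 over all genes. Integrin beta-3 (ITGB3), which binds osteopontin and fibronectin with the alpha-V chain, averaged 19.2 ± 0.681 CPM in knockdown cells and 10.99 ± 1.51 CPM in control cells (SD, n = 3 each), with an edgeR adjusted p of 0.0731 and 0.0146 with the block. EGFR, to which repeats of tenascin-C can bind, averaged 102 ± 3.94 CPM in knockdown cells and 151 ± 4.45 CPM in control cells (SD, n = 3 each), with an edgeR adjusted p of 0.0661 and 0.00673 with the block. The heparan sulfate co-receptor SDC4 had a log2 fold change of -0.59 and an edgeR adjusted p of 0.126, and 0.0144 with the block.

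Among 20 regulators in the TGF-beta and YAP pathways, 1 rose and 1 fell. The receptor TGFBR1 had 58.4, 51.5 and 70.8 CPM in knockdown libraries and 17.8, 18.5 and 27.5 CPM in control libraries. The groups did not overlap, with a log2 fold change of 1.503 ± 0.23 (SE) and an edgeR adjusted p of 0.0300. SMAD3, the transcription factor that the receptor activates, had 188, 174 and 248 CPM in knockdown libraries and 417, 394 and 507 CPM in control libraries. It fell by 1.11 on the log2 scale (SE 0.18, edgeR adjusted p of 0.0346). TEAD4, a DNA-binding partner of YAP, and the YAP kinase LATS1 had log2 fold changes of -1.03 and 0.74, with edgeR adjusted p-values of 0.0774 and 0.0843, and 0.0134 and 0.00577 with the block. With the replicate block 6 of the 20 were called higher and 5 lower, and the list's median was 0.13. ITGB1, TGFBR1 and SMAD3 were not called when any 1 library other than control replicate 3 was left out.

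Among 19 target genes of these pathways outside the members, 0 were called without the block, and 3 were higher and 5 lower with it. CRIM1, TPM1 and NT5E had log2 fold changes of -0.81, -0.75 and 1.11, with edgeR adjusted p-values of 0.0718, 0.106 and 0.135, and 0.00241, 0.00318 and 0.0132 with the block. TGFB2, which is also in the list of regulators, had a log2 fold change of 0.47 with an edgeR adjusted p of 0.144, and 0.0114 with the block. The list's median was -0.02, against -0.04 over all genes.

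Among 16 matrix assembly and crosslinking genes, 0 were called without the block and 5 higher and 1 lower with it. The latent TGF-beta binding protein LTBP2 averaged 30.4 ± 6.00 CPM in knockdown cells and 14.3 ± 2.69 CPM in control cells (SD, n = 3 each), with an edgeR adjusted p of 0.0661 and 0.00325 with the block. The collagen chaperone SERPINH1 and the procollagen protease BMP1 had log2 fold changes of 0.68 and 0.69, with edgeR adjusted p-values of 0.338 and 0.368, and 0.0334 and 0.0294 with the block. The transglutaminase TGM2 averaged 2.83 ± 0.501 CPM in knockdown cells and 1.07 ± 0.865 CPM in control cells (SD, n = 3 each), with an edgeR adjusted p of 0.270, and 0.0636 with the block. Of 25 other matricellular genes 14 were expressed enough to be tested, with 0 called without the block, and 2 higher and 1 lower with it. EFEMP1, a fibulin, averaged 706 ± 14.4 CPM in knockdown cells and 521 ± 53.9 CPM in control cells (SD, n = 3 each), with an edgeR adjusted p of 0.143 and 0.0204 with the block. FBLN5, NOV and MGP each averaged below 3 CPM in both groups and were not called in either fit. The median log2 fold change was 0.35 over the matrix assembly list and 0.34 over the other matricellular genes.

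Of 13 tested splicing factors reported for fibronectin exons, 0 were called without the block and 1 lower with it (7.69%, below the 10.3% of all genes called lower), and the list's median was -0.18. RBM9 averaged 214 ± 14.6 CPM in knockdown cells and 273 ± 18.4 CPM in control cells (SD, n = 3 each), with a log2 fold change of -0.35 and an edgeR adjusted p of 0.221, and 0.0213 with the block. SFRS3, HNRNPA1 and ESRP2 had log2 fold changes of -0.18, -0.22 and -0.19 and were called in neither fit.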

How the data were processed

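Each of 6 RNA-seq libraries has raw counts per gene and per exon, deposited by the authors, and each of 3 iCLIP samples has a list of single-nucleotide sites with a p-value, also deposited. The submitters' processing notes name hg18. What aligned and counted the reads, with which strand setting, and what called the sites is not given in the sources used here. One protocol text, for iCLIP, is attached to the RNA-seq samples too, and speaks of combined biological replicates.

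Gene counts were tested with edgeR 4.0.16 (R 4.3.3; TMM, filterByExpr, quasi-likelihood, Benjamini-Hochberg over 13856 genes, threshold 0.05), exon counts with diffSpliceDGE, and DESeq2 1.42.0 was an alternative. CPM uses TMM factors. The SE of an edgeR log2 fold change is its absolute value divided by the square root of the quasi-likelihood F statistic. Deviations of same-numbered libraries correlated at 0.318, 0.732 and 0.751, all above 0.1, so the replicate numbers, which come from the sample titles, were taken to pair the libraries. Differently numbered libraries correlated at -0.722 to 0.494. The highest of these, knockdown replicate 2 with control replicate 1, exceeds the value of the first same-numbered pair. The block leaves 2 residual degrees of freedom, against 4 without it. Relative inclusion used the constant exons on either side, exons 10 and 18 for TNC. hg18 exons were matched to GENCODE 29 by order and length, with no conversion of coordinates. The gene and exon tests were tried on simulated data. Members and lists were chosen with earlier results of these data known. Named list genes are the 4 lowest adjusted p-values per list, and named exons are the alternative and last exons and the 3 of lowest p.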

Additional observations from a re-analysis of the deposited data

How the results depend on the processing

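With the replicate number as a block, 7 members and 36 of the 96 tested genes of the lists were called, and with DESeq2 3 and 12, against 0 and 3 in edgeR with the group alone. The block changed no call on the exons. Leaving out 1 library gave 0 to 3 members and 0 to 20 list genes, the higher numbers without control replicate 3. It took the log2 fold change of TNC to between -0.062 and 0.28 and of CYR61 to between -0.16 and 0.10. The difference in relative inclusion of TNC C stayed between 7.97 and 12.7 percentage points. That of A1 ranged from -8.07 to 10.2, of A2 from -5.01 to 12.3, of A3 from -2.64 to 7.28 and of A4 from -0.58 to 12.4. Relative to all constant exons A1 turned to -0.71 and B to -5.86, and as a share of the gene's exon counts to -0.027 and -0.19 percentage points. The cause was not tested. The 28 shared iCLIP sites became 0 at a deposited p of at most 0.05 or 0.001, 123 within 5 nucleotides, 272 in at least 2 of 3 samples, and 46 to 202 when 1 sample was left out.

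With 3 libraries a group, an exact permutation test cannot go below 0.1, or 0.25 over pairs. Inclusion from read density moves with uneven coverage, and depth limits EDB most, at 65 to 132 counts a library. The control 3 alternative for last exons, the added exon length and the gene strand were chosen after seeing the data.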
